A study of Mus musculus with 7 samples.

Results

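The genes described here are the CCN family, a set of secreted matricellular proteins, together with *Yap1* and *Wwtr1*, which encode the transcriptional co-activators YAP and TAZ. They were found by symbol, as *Wisp1*, *Wisp2*, *Wisp3*, *Ctgf*, *Cyr61* and *Nov* (now named *Ccn4*, *Ccn5*, *Ccn6*, *Ccn2*, *Ccn1* and *Ccn3*) plus *Yap1* and *Wwtr1*, and made up 8 of the 31531 genes measured. The set was chosen around *Wisp1* and was thus chosen by its count, which was higher in the mutant libraries, so the values of *Wisp1* between the groups are a description and carry no test. RNA was measured in fibers of the epaxial (back) muscles from 4 WT and 3 dyW fetuses at E17.5, with 1 library per fetus. All came from crosses of heterozygous dyW mice on a C57BL/6 background, were untreated, and differed by genotype, the dyW fetuses being homozygous for a disrupted *Lama2* gene in every tissue. *Lama2* encodes the laminin-α2 chain of the muscle basement membrane, and dyW mice serve as a model of LAMA2-related congenital muscular dystrophy (LAMA2-CMD). Fibers were released with dispase II and collagenase A and kept on a strainer without selection for a cell type, so cells attached to the fibers could be included. *Wisp1* was 7.77-fold higher in the mean of the dyW libraries. By the same ratio of means *Nov* stood at 6.49-fold, *Wwtr1* at 3.03-fold, *Yap1* at 2.14-fold, *Ctgf* at 2.05-fold, *Wisp2* at 1.44-fold, *Cyr61* at 0.670-fold and *Wisp3*, from very few reads, at 0.0186-fold, and all of these overlapped between the genotypes. The ratios of *Yap1*, *Ctgf* and *Wisp2* lay above 1 through dyW1, and without that library they were 0.938, 0.0946 and 0. With 1 dyW library left out, the ratio ran from 4.44 to 9.54 for *Wisp1* and from 3.53 to 9.74 for *Nov*. It ran from 2.09 to 3.86 for *Wwtr1* and from 0.217 to 0.950 for *Cyr61*. None of the 7 genes other than *Wisp1* passed the test across all genes.

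CCN proteins sit in the extracellular matrix without building it. They bind integrins, proteoglycans, LRP receptors and growth factors, and thereby modulate adhesion, migration and matrix deposition. YAP and TAZ are held in the cytoplasm when phosphorylated by the LATS kinases of the Hippo pathway. When they enter the nucleus, for instance in cells on a stiff matrix, they bind TEAD transcription factors and switch on *Cyr61* and *Ctgf*. *Wisp1* was named as a Wnt1-inducible gene and is known from bone, fibroblasts and fibro-adipogenic progenitors, the mesenchymal cells that lie between muscle fibers.

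In GRCm39, *Wisp1* lies on chromosome 15 from 66763060 to 66795050 on the plus strand (ENSMUSG00000005124), with *Nov* on the same chromosome from 54609012 to 54620154. *Ctgf* occupies 24471333 to 24474900 of chromosome 10 and *Wisp3* 39026966 to 39041928 of the same chromosome. *Cyr61*, at 145352720 to 145355738, and *Wwtr1*, at 57363067 to 57483331, are on chromosome 3. *Wisp2* spans 163662753 to 163675066 of chromosome 2, and *Yap1* 7932000 to 8004661 of chromosome 9. Genes annotated on the opposite strand share exon bases with 5 of the 8, 1164 bases in *Ctgf* (Gm15270), 482 in *Wisp3* (*Tube1*), 468 in *Cyr61* (Gm17501), 413 in *Wisp1* (Gm46514) and 116 in *Yap1* (Gm20416). The strand setting of the read counting is not given in the sources used here, so reads in those stretches cannot be assigned to a strand.

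TEAD factors bind a short core written CATTCC, which reads GGAATG on the other strand. RefSeq promoters of GRCm38.p6, from 250 bases before to 50 bases after a gene's start, were at hand for *Cyr61*, *Yap1*, *Wwtr1* and *Wisp3*, and not for *Wisp1*, *Wisp2*, *Ctgf* and *Nov*. The core was found in 3 of these 4 genes, *Wisp3* being without it, and in 14.7% of all 32851 promoters of the same length. The stretches around it are printed because *Cyr61* is the textbook target of the co-activators and *Yap1* and *Wwtr1* encode them. Each is 66 bases long, written 5′ to 3′ along the gene's strand, which is the minus strand for all 3, with the core in capitals. A match of letters is a description and not a bound site. The first base of the core lies at -103 from the start in *Cyr61*, at -141 in *Yap1* and at -136 in *Wwtr1*, or at -170 from the other of the 2 annotated *Wwtr1* starts. The stretches are chr3:145650053-145650118, chr9:8004702-8004767 and chr3:57576011-57576076.
Cyr61: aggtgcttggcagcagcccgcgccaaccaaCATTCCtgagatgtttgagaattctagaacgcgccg
Yap1: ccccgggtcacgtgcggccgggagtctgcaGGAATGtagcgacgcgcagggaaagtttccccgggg
Wwtr1: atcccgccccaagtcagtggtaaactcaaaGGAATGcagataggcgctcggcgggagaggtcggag

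The deposited values are counts divided by a size factor per library, here called normalized counts. All were whole multiples of a single step, from which the reads were recovered. Reads on genes numbered 470804 to 2220813 in the WT libraries and 3663905 to 18297106 in the dyW libraries, so 1 read was worth 2.05 to 5.33 normalized counts in WT and 0.0974 to 0.488 in dyW. The reads were made by PCR without molecular identifiers, so every interval and limit given for a read number covers counting error only. Several libraries stood apart. *Lama2* measured 90.6, 111, 105 and 107 normalized counts in WT1 to WT4 and 4.29 and 6.07 in dyW1 and dyW2, but 140 in the library labelled dyW3, which goes against its label. Its WT counts lay within the range of odorant and vomeronasal receptor genes, as given below, so *Lama2* is a weak check of the labels. Cartilage markers took 17.5% of the counts of WT1. In dyW1 the 10 myofiber markers summed to 65.8 normalized counts, against 2660 to 69988 in WT and 8231 and 4732 in dyW2 and in the library labelled dyW3, while osteoblast markers summed to 9712, against 94.4 to 172 in WT. These libraries are therefore also left out in turn in what follows. Across all 25791 genes tested, the median log2 fold change was -1.99, and it was 0.20 over the 6111 of them with a mean of at least 50 normalized counts. The median moved to -1.24 after scaling every library to 1 total and to 0.06 with quantile normalization, so the fold changes below are read beside it.

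*Wisp1* encodes WISP1, a CCN protein of mesenchymal cells. It measured 64.0, 51.2, 51.3 and 40.9 normalized counts in WT1 to WT4. In the dyW libraries it measured 748 in dyW1, 219 in dyW2 and 241 in the library labelled dyW3. Every dyW library was above every WT library, and the highest WT value was far below the lowest dyW value. The WT mean was 51.8 ± 9.44 (SD, n = 4) and the dyW mean 403 ± 299 (SD, n = 3), with a coefficient of variation of 18.2% in WT and 74.3% in dyW. The log2 fold change on log2(normalized count + 1) was 2.71 with a standard error of 0.61. It was 2.15 without dyW1, 2.96 without the library labelled dyW3 and 2.82 without WT1, and it was 3.85 after scaling every library to 1 total. The WT values rest on few reads, 12, 19, 25 and 13, and the 12 reads of WT1 have an exact 95% Poisson interval of 6.20 to 21.0 reads. The dyW values rest on 7678, 1734 and 494 reads. Per 1000000 reads on genes, a scale that uses no size factor, *Wisp1* ranged from 7.38 to 25.5 in WT and from 94.8 to 535 in dyW.

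**Figure D1:**
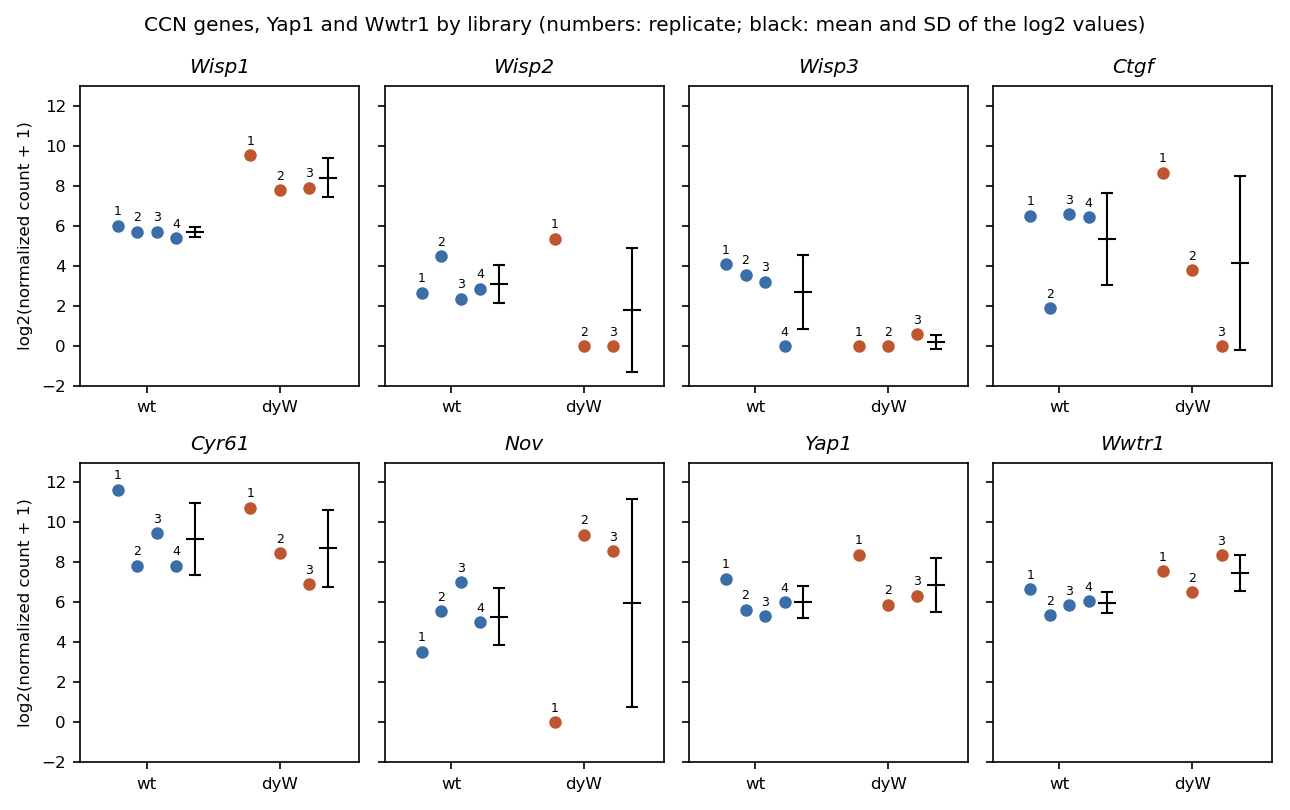
Normalized counts of the 8 genes in each library, as log2(normalized count + 1) on the vertical axis, with WT (wt) in blue, dyW in orange, the replicate number above each point and the mean ± SD of the log2 values in black. Only *Wisp1* has all 3 dyW libraries above all 4 WT libraries, while *Nov* and *Ctgf* each have a dyW library at 0.

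*Yap1* and *Wwtr1* encode the co-activators. *Yap1* measured 144, 48.5, 38.97 and 62.9 normalized counts in WT1 to WT4. It measured 335 in dyW1, 58.1 in dyW2 and 80.1 in the library labelled dyW3. Only dyW1 lay above the whole WT range. Its log2 fold change was 0.84 with a standard error of 0.79 (limma, adjusted p = 0.443), the exact two-sided permutation test gave p = 0.4, and the log2 fold change was 0.08 without dyW1. With 4 against 3 libraries this permutation test cannot give a p below 0.0571.

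*Wwtr1* measured 101, 40.5, 57.4 and 66.1 normalized counts in WT1 to WT4. It measured 187 in dyW1, 90.3 in dyW2 and 325 in the library labelled dyW3. The values of dyW1 and of the library labelled dyW3 lay above the whole WT range, whereas that of dyW2 was below WT1. The log2 fold change was 1.48 with a standard error of 0.65 and did not pass the test across all genes (limma, adjusted p = 0.110), with p = 0.114 in the exact permutation test. It was 1.43 without dyW1, 1.04 without the library labelled dyW3 and 1.70 without WT1, and its adjusted p ran from 0.0389 to 0.421 over the alternatives.

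*Cyr61* encodes CCN1, an angiogenic matrix protein that binds integrins. It measured 3204, 229, 699 and 227 normalized counts in WT1 to WT4. It measured 1716 in dyW1, 355 in dyW2 and 119 in the library labelled dyW3. The groups overlapped, and WT1, the library rich in cartilage markers, held the highest value. In limma the log2 fold change was -0.49 with a standard error of 1.14 (adjusted p = 0.768), and its sign turned to 0.33 without WT1, to 0.42 without the library labelled dyW3 and to 0.66 after scaling every library to 1 total.

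*Ctgf* encodes CCN2, a profibrotic partner of TGF-β signaling. It measured 90.6, 2.70, 94.4 and 85.0 normalized counts in WT1 to WT4. It measured 406 in dyW1 and 12.9 in dyW2, and had no read in the library labelled dyW3, where 3 reads would be 1.46 normalized counts. WT2 held a single read and dyW1, with 4164 reads, the highest value, so the groups overlapped. Its log2 fold change was -1.20 with a standard error of 1.97 (limma, adjusted p = 0.672). It was -3.45 without dyW1 and 0.88 without the library labelled dyW3, and it was 0.03 with voom on the recovered reads of all libraries, so its sign depended on the libraries kept and on the method.

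*Nov* encodes CCN3, which binds NOTCH1 and is often found to counter CCN2. It measured 10.7, 45.8, 127 and 31.5 normalized counts in WT1 to WT4. It had no read in dyW1, where 3 reads would be 0.292 normalized counts, and measured 668 in dyW2 and 379 in the library labelled dyW3. Both of the latter lay above the whole WT range, and dyW1 lay below it. The log2 fold change was 0.71 with a standard error of 2.07 (limma, adjusted p = 0.817), and it was 3.70 without dyW1 (adjusted p = 0.0233, the lowest over the alternatives, which reached 0.974), -0.99 without dyW2 and -0.59 without the library labelled dyW3. Among the dyW libraries, dyW1 was thus lowest for *Nov* and highest for *Ctgf*.

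*Wisp2* encodes CCN5, the family member that lacks the C-terminal domain, and *Wisp3* encodes CCN6. *Wisp2* measured 5.33, 21.6, 4.10 and 6.29 normalized counts in WT1 to WT4, which are 1, 8, 2 and 2 reads. It measured 40.2 in dyW1, from 413 reads, and had no read in dyW2 or in the library labelled dyW3. For *Wisp2* the log2 fold change was -1.31 with a standard error of 1.35 (limma, adjusted p = 0.487). It was -3.09 without dyW1 (adjusted p = 0.0371, the lowest over the alternatives, which reached 0.925) and -0.41 without dyW2 or without the library labelled dyW3. *Wisp3* had 3, 4, 4 and 0 reads in WT1 to WT4. In dyW it had 1 read in the library labelled dyW3 and none in dyW1 or dyW2, so both genotypes were at or near the limit of 3 reads per library. The fitted log2 difference of *Wisp3* was -2.52 with a standard error of 0.99 (limma, adjusted p = 0.0816) and depends on the 1 added to each value. The adjusted p of *Wisp3* was 0.0125 without WT4 and 0.0134 with voom, and it ran up to 0.713 over the alternatives. With quantile normalization the log2 fold change turned to 1.37 for *Wisp2* and to 0.53 for *Wisp3*.

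Called genes are those with an adjusted p under 0.01 and an absolute log2 fold change over 1.5. *Wisp1* met this rule in the higher direction, as 0.0659% of all tested genes did, but it was chosen for this difference and nothing is read from it. Of the other 7 genes, 0 were called higher. None of the 8 was called lower, where 18.7% of all tested genes were, and 2.45% of those with a mean of at least 50 normalized counts. At an unadjusted p under 0.05 in limma, 1 of the other 7 was higher (*Wwtr1*), where 2.81% of all tested genes were, and 1 was lower (*Wisp3*), where 41.5% were. Among genes with a mean of at least 50, to which *Wwtr1* belongs, these shares were 10.7% and 8.89%. The count called higher became 0 when any library other than the one labelled dyW3 was left out, and with voom on the recovered reads 0 were called in either direction. The dyW libraries were all above the WT libraries for 1 of the 8, *Wisp1*, and for 3.28% of all tested genes. They were all below for 0 of the 8 and for 31.5% of all tested genes. Among genes with a mean of at least 50, these shares were 12.2% above and 6.81% below. The *p*-values measure the spread between these libraries, each from a different mouse.

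Levels of different genes were compared per kb of exon. In WT, *Cyr61* was highest, at 536 ± 702 (SD, n = 4) normalized counts per kb, followed by *Ctgf* at 21.4 ± 13.7, *Nov* at 9.48 ± 8.99, *Wisp1* at 8.53 ± 1.55, *Yap1* at 7.85 ± 5.11, *Wwtr1* at 5.60 ± 2.17, *Wisp2* at 4.31 ± 3.80 and *Wisp3* at 2.22 ± 1.69. *Cyr61* ranked first in all 4 WT libraries, although its mean differed from that of *Ctgf* by less than its SD, and all other neighbours in this order differed by less than the larger of their SDs. In dyW, *Cyr61* stood at 359 ± 424 (SD, n = 3) normalized counts per kb, *Wisp1* at 66.3 ± 49.2, *Nov* at 61.6 ± 59.1, *Ctgf* at 43.8 ± 72.4, *Wwtr1* at 17.0 ± 9.98, *Yap1* at 16.8 ± 16.4 and *Wisp2* at 6.20 ± 10.7. *Cyr61* ranked first in dyW1 and dyW2, and *Nov* in the library labelled dyW3. Per kb, *Wisp1* was the third of the 8 in each dyW library, in WT2 and in WT4, and the fourth in WT1 and WT3. These places depend on the length used. Per kb of the longest transcript, *Wwtr1* was first in the library labelled dyW3, at 69.2 normalized counts per kb, and *Wisp1* was the fourth there, at 46.6, the third in WT2, dyW1 and dyW2 and the fifth in the other WT libraries. On that length *Wwtr1* (14.1) and *Yap1* (13.9) had a higher WT mean than *Wisp1* (10.01) and *Nov* (9.48). In dyW too, no neighbours in the order of means differed by more than the larger of their SDs.

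To read the low WT counts, each gene was set beside 1207 odorant and vomeronasal receptor genes, which are used mainly by sensory neurons of the nose. Their median in WT was 0.632 to 2.48 reads per kb. *Wisp1* stood at 3.12, 1.26, 2.33 and 1.16 times this median in WT1 to WT4, and between 7.79% and 38.6% of the receptor genes had at least as many reads per kb in the same library. *Yap1* was at 0.774 to 4.56 times and *Wwtr1* at 0.511 to 2.54 times the median. *Wwtr1* depends most on the exon length used, with a mean ratio of 1.34 over the union of its exons and 3.33 over its longest transcript. Hence in WT the counts of *Wisp1*, *Yap1* and *Wwtr1* lay within the range of the receptor genes. *Cyr61* was at 16.9 to 468 times the median in WT, above each receptor gene, and *Ctgf* was at 4.59 to 8.44 times in 3 WT libraries and at 0.126 in WT2. *Nov* was at 0.558, 1.21, 6.19 and 0.954 times in WT1 to WT4, with up to 67.1% of the receptor genes at least as high, and *Wisp2* and *Wisp3* did not exceed 1.49 times.

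In dyW1 and dyW2 the median of the receptor genes was 0 reads per kb, so no ratio is given, and none of the receptor genes reached *Wisp1*. In the library labelled dyW3 the median was 1.07 reads per kb. There *Nov* was at 128, *Cyr61* at 112, *Wisp1* at 76.0, *Wwtr1* at 52.7 and *Yap1* at 16.4 times the median, and 3.73% of the receptor genes had at least as many reads per kb as *Wisp1*. *Lama2* was at 15.0 times the median there. At least as high as *Lama2* were 11.1% of the receptor genes in dyW1, 0.994% in dyW2 and 26.8% in the library labelled dyW3. The part that the level of the receptor genes has in the fold changes was not tested.

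**Figure D2:**
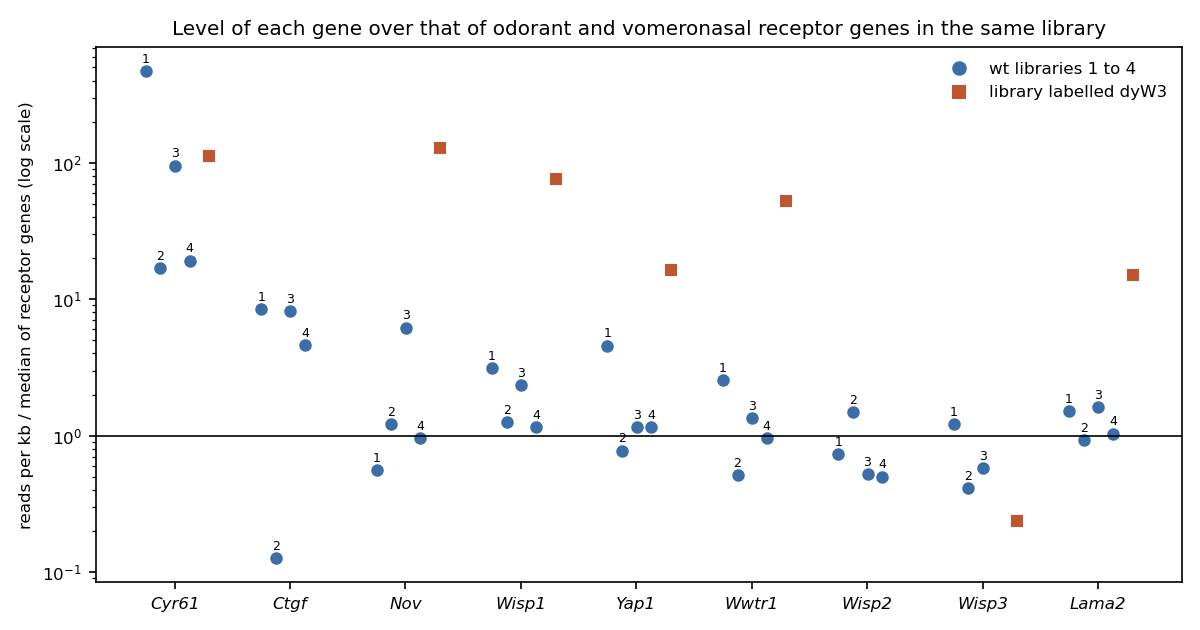
Reads per kb of exon of each gene, and of *Lama2*, divided by the median of 1207 receptor genes (odorant and vomeronasal) in that library (log scale), for WT libraries 1 to 4 (blue circles) and the library labelled dyW3 (orange squares); values of 0 are not drawn, and dyW1 and dyW2, whose median was 0, are left out. In WT, *Cyr61* stands at 16.9 or more in each library, whereas *Wisp1* lies between 1.16 and 3.12.

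Ratios of the genes within a library do not depend on its scaling. *Wisp1* over *Yap1* was 0.444, 1.06, 1.32 and 0.65 in WT1 to WT4, against 2.24 in dyW1, 3.78 in dyW2 and 3.01 in the library labelled dyW3. The groups did not overlap, and since *Wisp1* was chosen for its rise this is a description. *Wisp1* over *Cyr61* was likewise separate, at 0.0200 to 0.224 in WT and 0.436 to 2.03 in dyW. *Wisp1* over *Wwtr1* was 0.632, 1.27, 0.893 and 0.619 in WT1 to WT4 and 4.00, 2.43 and 0.742 in the dyW libraries. In the library labelled dyW3 this ratio lay within the WT range. *Wwtr1* over *Yap1* ran from 0.704 to 1.47 in WT and was 0.559 in dyW1, 1.56 in dyW2 and 4.06 in the library labelled dyW3, so the balance of the co-activators differed more among the dyW libraries than among the WT libraries.

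**Figure D3:**
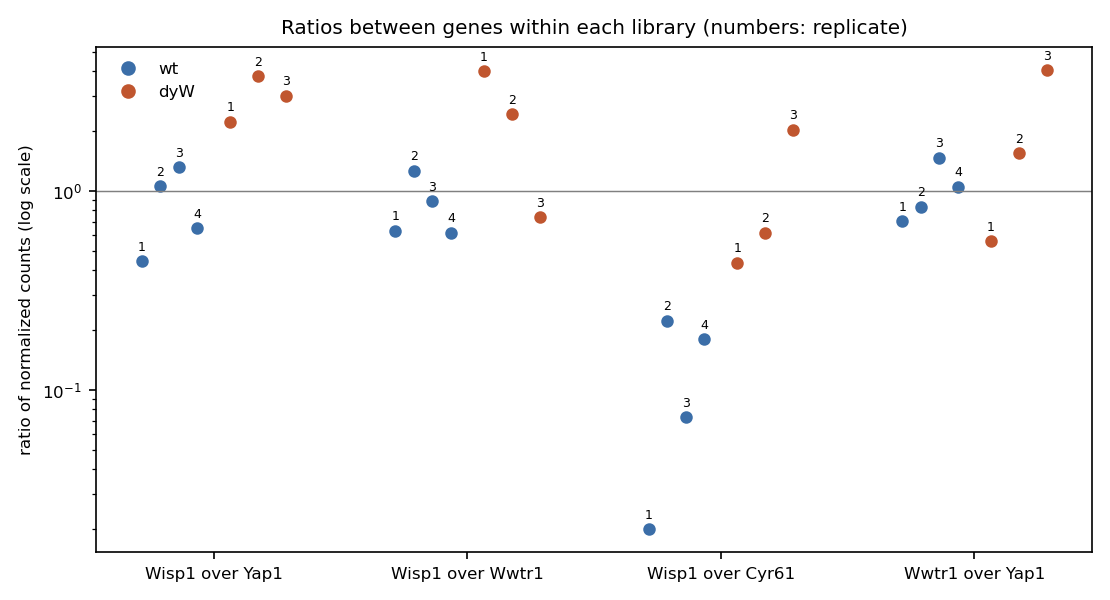
Ratios of normalized counts between genes of the same library (log scale), with WT (wt) in blue, dyW in orange and the replicate number above each point. *Wisp1* over *Yap1* is at most 1.32 in WT and at least 2.24 in dyW, whereas *Wisp1* over *Wwtr1* in the library labelled dyW3, at 0.742, falls among the WT values.

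The summed fibroblast markers were higher in dyW, but most single markers overlapped. The 9 markers (*Pdgfra*, *Dpt*, *Lum*, *Dcn*, *Col1a1*, *Col1a2*, *Col3a1*, *Pi16* and *Twist2*) summed to 4441, 8459, 12743 and 7077 normalized counts in WT1 to WT4 and to 21845, 28909 and 20527 in the dyW libraries, with no overlap. For 2 of the 9, *Pdgfra* and *Col1a2*, all dyW libraries were above all WT libraries, and for 1, *Pi16*, all were below, where 3.28% of all tested genes were above and 31.5% below. For genes with a mean of at least 50, as 8 of the 9 were, these shares were 12.2% and 6.81%. In dyW1, where *Wisp1* was highest, *Col1a1* and *Col1a2*, the chains of type I collagen, which bone also makes, took 93.9% of the sum, and the other fibroblast markers summed to 1332, below the 3364 to 9276 of WT, with *Dpt* and *Twist2* at 0. In dyW2 and in the library labelled dyW3 these others summed to 20951 and 13892. *Pdgfra*, the receptor that marks fibro-adipogenic progenitors, measured 38.97 to 123 normalized counts in WT and 280, 296 and 337 in dyW and was not called (limma, log2 fold change 1.98, adjusted p = 0.0286). *Pi16*, of a fibroblast subset, fell by 4.24 on the log2 scale (adjusted p = 0.00886) and was called lower, as 18.7% of all tested genes were, a call lost in 14 of 16 alternatives. Per 1000 counts of the fibroblast markers, *Wisp1* had 14.4, 6.06, 4.02 and 5.78 counts in WT1 to WT4 and 34.2, 7.59 and 11.8 in the dyW libraries. On this scale the groups overlapped, since dyW2 and the library labelled dyW3 lay below WT1. The 5 endothelium markers summed to 328 to 525 in WT and to 555 to 1258 in dyW without overlap. Of the single markers, however, only *Emcn* was above WT in all dyW libraries. It was 20% of the list, where 3.28% of all tested genes and 12.2% of those with a mean of at least 50 were above. *Kdr* (78.1) and *Cdh5* (47.4) in the library labelled dyW3 were below each WT library. In bulk samples, more cells of a type and more RNA per cell cannot be told apart, and the part of these cell types in the *Wisp1* difference was not tested.

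Among the dyW libraries, dyW1 held the most *Wisp1*, *Wisp2*, *Ctgf*, *Cyr61* and *Yap1*, and it was also the library with the osteoblast markers. There *Ibsp*, a bone matrix protein, measured 8191 normalized counts, *Runx2*, the master factor of osteoblasts, 985, *Alpl* 365 and *Sp7* 159. In dyW2 all 5 osteoblast markers (*Runx2*, *Sp7*, *Alpl*, *Ibsp* and *Bglap*) had no read, and in the library labelled dyW3 only *Runx2* had reads. *Wisp1* measured 219 and 241 in these libraries. Cartilage markers summed to 138 to 439246 in WT and 17.2 to 340 in dyW, and tendon markers to 135 to 2655 in WT and 95.5 to 1146 in dyW, and both sums overlapped. All 6 cartilage markers had a log2 fold change below 0, with a median of -5.96. *Ucma*, a cartilage matrix protein, measured 21.6 to 3236 in WT and 0 to 1.95 in dyW (limma, adjusted p = 0.00852). It was called lower, as 18.7% of all tested genes and 2.45% of those with a mean of at least 50 were. The call was lost in 12 of 16 alternatives. Of the defining fiber markers, *Acta1*, skeletal α-actin, measured 1973 to 52989 normalized counts in WT, 3667 in dyW2, 1807 in the library labelled dyW3 and 4.09 in dyW1, so fiber RNA was nearly missing from dyW1. *Ckm*, the muscle creatine kinase, had no read in dyW1. All 10 myofiber markers had a log2 fold change below 0, with a median of -2.73, beside -1.99 over all tested genes and 0.20 over those with a mean of at least 50. Only *Ttn* was below WT in all dyW libraries (limma, log2 fold change -2.66, adjusted p = 0.0201). It was 10% of the list, where 31.5% of all tested genes and 6.81% of those with a mean of at least 50 were below.

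**Figure D4:**
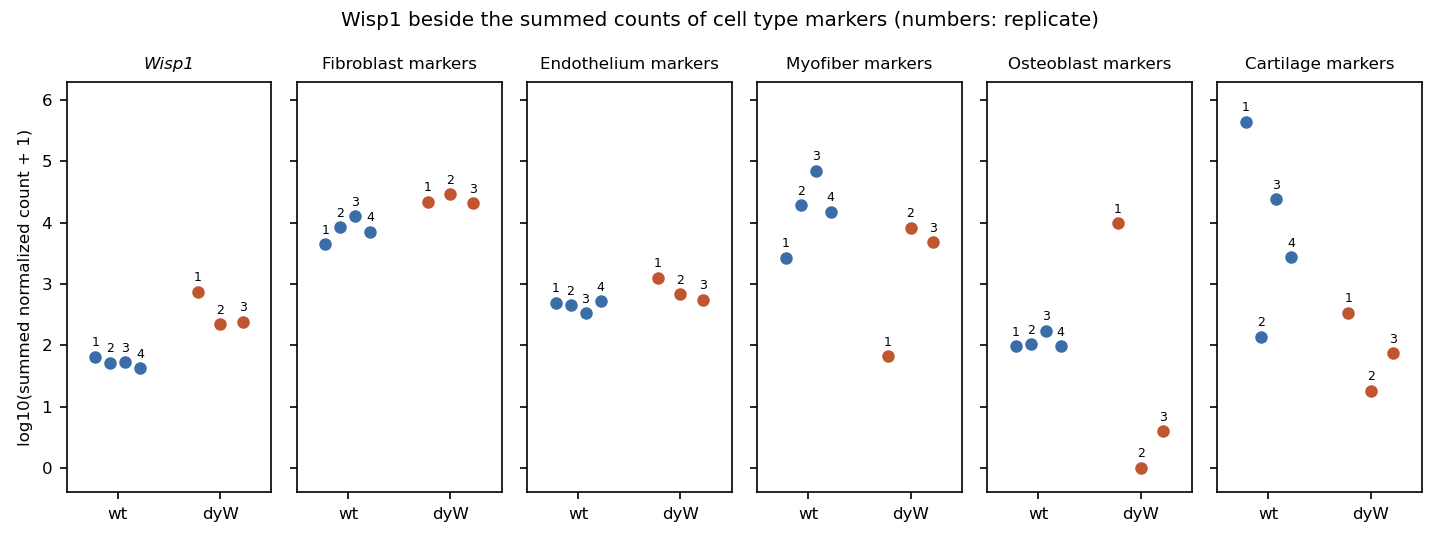
*Wisp1* beside the summed normalized counts of 5 marker lists, as log10(sum + 1) on the vertical axis, with WT (wt) in blue, dyW in orange and the replicate number above each point. The sums of fibroblast and of endothelium markers are higher in all 3 dyW libraries, and osteoblast markers are high only in dyW1, at 9712 against at most 172 in the other libraries.

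The remaining marker lists also overlapped between the genotypes. Leukocyte markers summed to 107 to 217 in WT and 31.5 to 191 in dyW, smooth muscle and pericyte markers to 201.0 to 421 and 45.9 to 711, and Schwann and neural markers to 69.3 to 245 and 0 to 759.

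The genes around the CCN family were described by lists of their roles, 83 genes in all. Of these, 0 were called higher and 1 was called lower, or 1.20%, beside 18.7% of all tested genes and 2.45% of those with a mean of at least 50. At an unadjusted p under 0.05 in limma, 7 were higher and 11 lower, where 2.81% and 41.5% of all tested genes and 10.7% and 8.89% of those with a mean of at least 50 were. Their median log2 fold change was -0.33.

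Upstream of YAP and TAZ, 0 of 21 Hippo kinases and regulators were called, with a median log2 fold change of 0.60. This was the highest among the lists around the CCN family, cell type markers not included. For 4 of them, or 19.0%, all dyW libraries were above all WT libraries, where 3.28% of all tested genes were. These 4 were among the 17 genes of the list with a mean of at least 50, or 23.5% of them, where 12.2% of all tested genes of that level were. They are named here after their values were seen. *Stk3*, the MST2 kinase at the top of the core cascade, measured 101, 64.7, 53.3 and 66.1 normalized counts in WT1 to WT4 and 170, 152 and 177 in the dyW libraries, which made it the steadiest of the 4 in dyW (log2 fold change 1.25, SE 0.52, limma adjusted p = 0.0986). *Mob1a*, the LATS co-activator, had a log2 fold change of 1.78 (adjusted p = 0.0770), *Amotl1*, an angiomotin that binds YAP, of 1.48 (adjusted p = 0.1002), and *Frmd6*, an upstream activator, of 1.43 (adjusted p = 0.197). The kinases that phosphorylate YAP, *Lats1* and *Lats2*, had log2 fold changes of 1.24 and 0.77 (adjusted p = 0.204 and 0.381). The largest differences in the list were those of *Wwc1*, the KIBRA scaffold, at -2.42 with an SE of 1.07 (adjusted p = 0.113), and of *Ptpn14*, a phosphatase that binds YAP, at -2.28 with an SE of 1.398 (adjusted p = 0.241). Both had no read in dyW2, and without that library *Ptpn14* was at -0.26 and *Wwc1* at -1.41. Without dyW1, *Wwc1* was at -3.35 (adjusted p = 0.0379, the lowest over the alternatives, which reached 0.966).

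Of the partners, 0 of 7 TEAD and VGLL genes were called, with a median log2 fold change of -1.49. *Tead1*, the TEAD factor of muscle, measured 65.6 to 133 normalized counts in WT and 250, 44.3 and 329 in the dyW libraries (log2 fold change 0.78, adjusted p = 0.466). *Tead4*, which is used in muscle differentiation, was low in all libraries, at 10.7 to 40.9 in WT and 0.253 to 9.26 in dyW (log2 fold change -2.50, adjusted p = 0.0666, and 0.31 with quantile normalization). *Tead3* stood at -2.76 (adjusted p = 0.0855), at -1.58 without the library labelled dyW3 and at -3.77 without dyW1, and its adjusted p ran from 0.0278 to 0.763 over the alternatives.

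Of 20 target genes of YAP and TAZ other than the CCN genes, 0 were called, 9 had a log2 fold change above 0 and 11 below, and the median was -0.15. *Ankrd1*, a target often used as a readout, measured 32.0, 10.8, 6.15 and 12.6 normalized counts in WT1 to WT4 and 4.87, 2.91 and 47.4 in the dyW libraries (log2 fold change -0.43, adjusted p = 0.775). *Fjx1*, a secreted kinase-related protein, was at 5.33 to 15.7 in WT and 0 to 3.03 in dyW (log2 fold change -2.77, adjusted p = 0.0246), and its sign turned to 0.61 with quantile normalization. *Foxf2* had no read in dyW and 0 to 28.3 normalized counts in WT (adjusted p = 0.0848). It was called lower without WT1 (log2 fold change -3.46, adjusted p = 0.00767) and with voom (adjusted p = 0.00271, the lowest over the alternatives, which reached 0.987), and the list then held 1 called gene. Of the list, *Rbms3* was above WT in all dyW libraries (log2 fold change 1.02, adjusted p = 0.162), and *Fjx1* and *Dock5* (log2 fold change -1.59, adjusted p = 0.164) were below WT in all of them. That is 5% above and 10% below, where 3.28% and 31.5% of all tested genes were. Of the 11 listed genes with a mean of at least 50, 9.09% were above and 0% below, where 12.2% and 6.81% of all such genes were. *Rbms3* and *Dock5* are named after their values were seen. *Axl*, a receptor kinase, was almost level at a log2 fold change of -0.09 with an SE of 0.64. 

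Of 14 Wnt effectors and target genes, 0 were called higher and 1 was called lower, where 18.7% of all tested genes were called lower. This gene was *Rnf43*, a ligase that removes Wnt receptors from the cell surface. *Rnf43* measured 16.0, 35.1, 24.6 and 50.3 normalized counts in WT1 to WT4 and had no read in any dyW library. Its log2 fold change was -4.91 with an SE of 0.70 (limma, adjusted p = 0.00372). The WT1 value is itself that of 3 reads. With 3 reads taken as the limit in each dyW library, its dyW mean was at least 44.2-fold lower on the deposited scaling only. The log2 fold change of *Rnf43* was -4.58 after scaling every library to 1 total (adjusted p = 0.0135) and -2.28 with quantile normalization (adjusted p = 0.269). With a pseudocount of 10 it was -1.98 (adjusted p = 0.0325). Its call thus depended on the scaling and the pseudocount, and over all alternatives the adjusted p ran from 0.000708 to 0.269. It was also not called without WT2, WT4 or dyW2 (log2 fold change -4.82, -4.65 and -4.91, adjusted p = 0.0127, 0.0121 and 0.0141). *Ctnnb1*, which encodes β-catenin, measured 94.4 to 221.5 in WT and 1008, 354 and 222.2 in the dyW libraries (log2 fold change 1.61, SE 0.64, adjusted p = 0.0837). *Axin2*, the general readout of Wnt signaling, measured 16.4 to 42.6 in WT and 7.89, 0 and 43.95 in the dyW libraries (log2 fold change -1.96, adjusted p = 0.243), so its dyW values spread over a wider range than in WT. *Nkd1*, a Wnt antagonist and target, was below WT in all dyW libraries, at 28.7 to 75.5 in WT and 0.488 to 14.7 in dyW (log2 fold change -3.15, adjusted p = 0.0279), and is named after its values were seen. With *Rnf43* it made 14.3% of the list below, where 31.5% of all tested genes were. *Ctnnb1* alone was above, or 7.14%, where 3.28% of all tested genes were. Of the listed genes with a mean of at least 50, 16.7% were above and 0% below, where 12.2% and 6.81% of all such genes were. The median of the list was -1.18.

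Of 10 genes for CCN receptors, 0 were called, with a median of -0.13. The largest increase was that of *Itgb1*, the β1 integrin chain, at 151 to 496 normalized counts in WT and 1024, 960 and 449 in the dyW libraries (log2 fold change 1.54, SE 0.57, adjusted p = 0.0676). *Itgav*, the αv chain, was above WT in all dyW libraries, at 66.1 to 85.3 in WT and 124 to 372 in dyW (log2 fold change 1.42, adjusted p = 0.0864), and is named after its values were seen. It was 10% of the list, where 3.28% of all tested genes and 12.2% of those with a mean of at least 50 were above. *Notch1*, the partner of CCN3, measured 172 to 213 in WT and 324, 0 and 47.9 in the dyW libraries (log2 fold change -2.96, adjusted p = 0.195). It was at -0.63 without dyW2 and at -4.81 without dyW1 (adjusted p = 0.0305, the lowest over the alternatives, which reached 0.588). *Lrp6*, a Wnt co-receptor that binds CCN2, was at -0.10 with an SE of 0.71.

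Of 14 other matricellular genes, 0 were called, with a median of -0.47. *Tnc*, tenascin-C, was above WT in all dyW libraries, at 83.6 to 137 normalized counts in WT and 1958, 446 and 164 in dyW (log2 fold change 2.15, SE 0.80, adjusted p = 0.0701), and is named after its values were seen. Like *Wisp1*, *Tnc* was highest in dyW1. *Tgfbi*, a TGF-β-induced matrix protein, was below WT in all dyW libraries, at 51.3 to 197 in WT and 1.47 to 32.9 in dyW (log2 fold change -2.54, adjusted p = 0.0903), and is also named after its values were seen. That is 7.14% of the list above and 7.14% below, where 3.28% and 31.5% of all tested genes were. Among tested genes with a mean of at least 50, as all 14 were, the shares were 12.2% and 6.81%. *Postn*, periostin of fibroblasts, measured 58.6 to 2263 in WT and 108, 4491 and 6996 in the dyW libraries (adjusted p = 0.571), which places dyW1 low, as for *Nov*. *Comp*, a protein of cartilage and tendon, had a log2 fold change of -5.79 with an SE of 2.001 (adjusted p = 0.0569), and *Thbs3* of -3.15 with an SE of 1.26 (adjusted p = 0.0864).

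**Figure D5:**
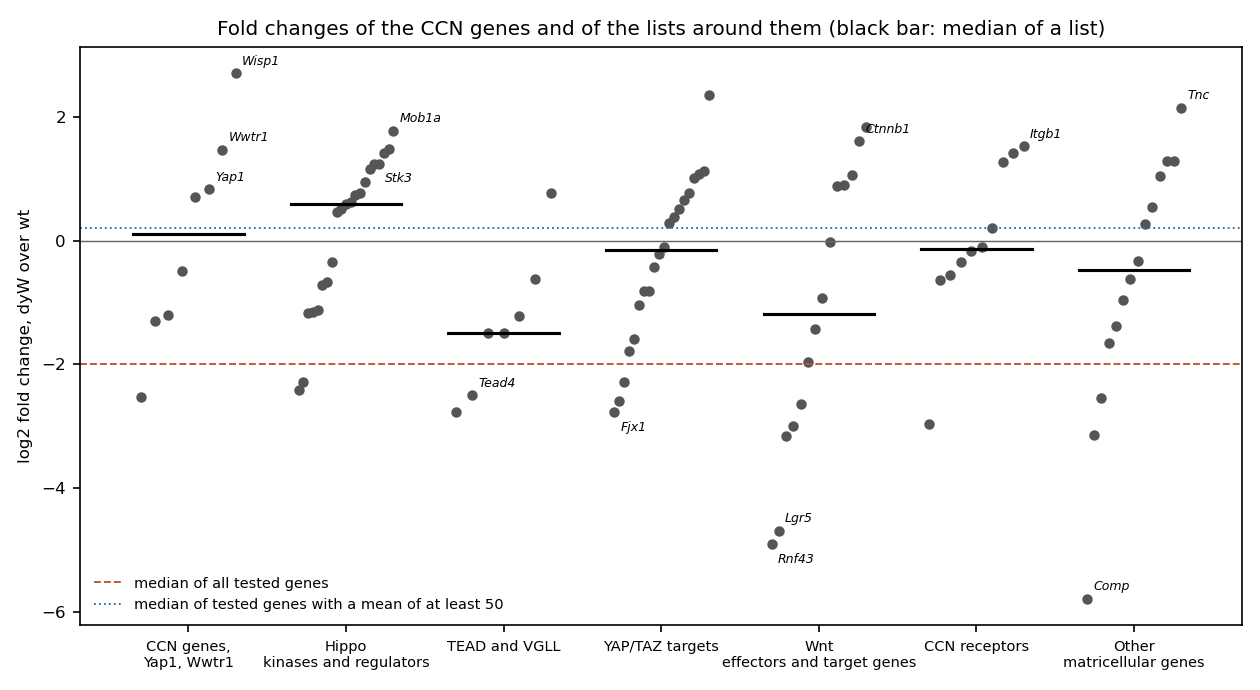
Log2 fold changes of dyW over WT for the 8 genes and for the 6 lists around them, 1 point per gene, with a black bar at the median of each list, a dashed line at the median of all tested genes (-1.99) and a dotted line at that of tested genes with a mean of at least 50 (0.20). The Hippo regulators have the highest median, 0.60, and *Wisp1*, at 2.71, is above every gene of the lists.

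The 5 genes whose log2 values were most alike to those of *Wisp1* over the 7 libraries, among 6110 genes with a mean of at least 50 normalized counts, were *Zfhx4* (Pearson r = 0.993), *Usp7* (0.985), *Adss* (0.979), *Ints6l* (0.977) and *Eif4g2* (0.976). *Zfhx4*, a zinc finger homeobox gene, measured 69.3, 64.7, 49.2 and 53.5 normalized counts in WT1 to WT4 and 365, 155 and 183 in the dyW libraries. *Wwtr1* ranked 655 in this likeness (r = 0.759) and *Yap1* 895 (r = 0.690), whereas *Cyr61* (0.143), *Ctgf* (0.065) and *Nov* (-0.247) ranked 2840 or lower. *Wisp1* was chosen for its rise and the 5 genes for their likeness to it, so their higher dyW values follow from the choice. These correlations share the libraries, their depth and their size factors, and are given as a description.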

How the data were processed

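Normalized counts of 31531 genes in 7 libraries, 4 WT and 3 dyW by their genotype labels, were analysed. The authors used Cutadapt for trimming, RNA STAR for alignment to GRCm39 and FeatureCounts for uniquely mapped reads, and deposited each count divided by a size factor per library. Tool versions, annotation release and strand setting are not given in the sources used here. The deposited columns of the authors' comparison (fold changes and *p*-values) were not used. Whole reads were recovered by dividing by the step of each library (100% whole within 0.01 reads). Rows that have a gene identifier but no symbol, 16.6% of the normalized counts, stayed in the fit.

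Of the genes, 25791 had a mean of at least 5 normalized counts, and their log2(normalized count + 1) values were fitted with limma (version 3.58.1, under R 4.3.3) by lmFit and eBayes with a trend, with Benjamini-Hochberg adjustment over all of them. Single genes were tested by exact two-sided permutation over the 35 assignments of 7 libraries to the genotypes, with scipy 1.17.1 in Python 3.11.15. The fit was tested on simulated data. Coordinates and exon lengths came from GENCODE mouse release 39. *Wisp1* was chosen by the comparison itself, and the genes and lists were chosen with earlier results of these data known. From each list the called genes, or else those with the largest absolute log2 fold change, are named. Any others named in a list are examples chosen after their values were seen. Alternatives to this fit were a pseudocount of 0.1 or 10, a filter at a mean of 50 or none, scaling to 1 total, quantile normalization, an adjusted p under 0.05, a replicate block, each library left out, and voom on the recovered reads, the last chosen after seeing the data.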

Additional observations from a re-analysis of the deposited data

Results flagged for a closer look

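In 3 of 9 groups of 4 WT libraries, 1 value lay apart. Its gap to the nearest other library, as a share of the group's range, exceeded Dixon's 95% critical value. Chance flags about 1 in 20 groups of independent, normally distributed values. The 9 groups share the same libraries and some values rest on few reads, so the 3 flags cannot be set against that share. *Wisp2* measured 21.6 normalized counts in WT2, from 8 reads, against at most 6.29 in the other WT libraries (gap over range 0.875). *Ctgf* measured 2.70 in WT2, from 1 read, against at least 85.0 in the others (0.897). *Cyr61* measured 3204 in WT1, against at most 699 in the others (0.841), and WT1 is the library in which cartilage markers took 17.5% of the counts. The cause was not tested.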

How the results depend on the processing

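The log2 fold changes of *Yap1* (0.08 to 1.97) and *Wwtr1* (1.04 to 2.61) stayed above 0 over the alternatives, of which the filters and the threshold cannot move a fold change. That of *Wisp1* ran from 2.15 to 3.85, and its sign was fixed by its choice when libraries were left out. The count of the 8 genes called higher, 1, became 0 with a pseudocount of 10, no filter, a mean of at least 50, the same total, quantile normalization, the replicate block and voom, and ranged from 0 to 1 with each library left out, staying at 1 only without the library labelled dyW3. The count called lower was 0 in every alternative. Of the 83 listed genes, the 1 called lower became 0 with a pseudocount of 10, a mean of at least 50, the same total, quantile normalization and the replicate block, 4 at an adjusted p under 0.05 and 2 with voom, and ranged from 0 to 2 with each library left out. Replicate numbers did not pair the samples (correlations of 0.147, -0.05 and -0.09), and the block is given for this reason only here.

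The sign turned with quantile normalization for *Wisp2* (1.37), *Wisp3* (0.53), *Tead4* (0.31), *Fjx1* (0.61), *Foxf2* (0.037), *Scx* (1.05), *Bglap* (0.92), *Alpl* (1.05) and *Adgre1* (0.061), for *Alpl* also with a pseudocount of 10 (0.18), for *Cyr61* with the same total (0.66), for *Nov* with a pseudocount of 0.1 (-0.35) and voom (-2.54), and for *Ctgf* with voom (0.030). With each library left out, the log2 fold change ranged from -3.45 to 0.88 for *Ctgf*, from -1.50 to 0.42 for *Cyr61* and from -0.99 to 3.70 for *Nov*. The cause was not tested. *Wisp2*, *Wisp3* and other low genes have no value under a mean of at least 50. The count-model tests planned as alternatives, edgeR and DESeq2, were not run. At 12 to 25 reads of *Wisp1* per WT library, depth limits the precision of its WT level.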
